A study of Bos taurus with 12 samples.

Results

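GADD45A, DIABLO, BAX, BCL2L1 and MCL1, 5 genes of programmed cell death and of the response to DNA damage, were followed in bovine embryos made in vitro. They were chosen with earlier results of these data known, and their probe sets were taken by symbol. Every probe set whose annotation gives exactly 1 of these symbols was taken, and each gene turned out to have a single probe set. They are thus 5 of the 24016 probe sets tested and 5 of the 9155 genes that the annotation names.

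The mitochondrial pathway of apoptosis is held by the BCL2 family. BAX, an effector, opens the outer mitochondrial membrane, while BCL2L1 (also called BCL-XL) and the short-lived MCL1 keep BAX and its relatives in check. DIABLO (also called SMAC) leaves the mitochondria once that membrane is open and binds the inhibitor of apoptosis proteins, which frees the caspases. GADD45A, a growth arrest and DNA damage-inducible gene and a known target of p53, acts in cell cycle arrest, stress kinase signalling and DNA repair. In the cow, embryos replace their maternal transcripts and switch on most of their own genes around the earlier of the stages studied here, and dying cells are a regular feature of the blastocyst.

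All embryos were of Japanese black cattle, from oocytes matured in vitro and inseminated with cryopreserved semen from bulls of that breed. Oocytes came either from slaughterhouse ovaries of adult cows or from ovaries taken at farms from prepubertal heifers of 9 to 12 months. From each donor group, 8-16-cell embryos were collected on day 3 (70 to 72 hours after insemination) in pools of 50, and expanded blastocysts on day 7 in pools of 10. Each of the 4 groups had 3 pools, and each pool was amplified and hybridized to 1 Affymetrix bovine array, giving 12 arrays. All pools had thus passed in vitro maturation, fertilization and culture, and no embryo grown in an animal was included. Donor age went with the source of the ovaries, and stage with the number of embryos in a pool, so these cannot be told apart. The labels do not say whether the pools of a group came from separate animals or culture runs, so no p-value speaks for animals or runs beyond these pools. In pools of whole embryos, fewer cells expressing a gene and less RNA per cell cannot be told apart, and because every array was scaled to the same mean, a signal is a share of the array and not an amount per embryo.

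Signals are given as log2(signal + 16), and differences are on that scale with the standard error (SE) and the adjusted p of limma's moderated test (Benjamini-Hochberg over all 24016 probe sets, called at 0.05). That test draws the variance of a gene towards a trend over all probe sets. Its SEs, intervals and p-values thus rest mostly on that trend and little on the gene's own spread between pools. The brightest of the 27 Bacillus subtilis controls on an array served as its background. It lay at signals of 121.84 to 423.76 on 11 arrays and at 1664.25 on prepubertal 8-16-cell replicate 3. That array stood apart in other ways: 1255 probe sets passed its background against 4297 to 8500 elsewhere, and its 100 brightest probe sets took 49.31% of its signal against 23.34% to 32.67%. Differences that moved by over 1.5 times without it are given without it too. Replicates 1 and 2 of the same group lay at 356.17 and 423.76, above every array of the other groups (at most 281.59). They passed 4297 and 5333 probe sets, against 5482 or more on each array of the other groups. Leaving out replicate 3 thus does not free comparisons with prepubertal 8-16-cell embryos from the higher background of that group. The stage labels were checked against 4 oocyte genes and 4 genes of the blastocyst epithelium. BMP15 and KPNA7 passed background on all 6 arrays of 8-16-cell embryos, GDF9 on 5 and NLRP5 on 0, and on blastocyst arrays KPNA7 and NLRP5 passed on 1 each and the others on 0. KRT8, KRT18 and CLDN6 passed on all 6 blastocyst arrays and IFNT2 on 5, while KRT8 passed on 0 of 6 arrays of the earlier stage and the other epithelial genes on 1 each. Of 10 genes of cumulus and granulosa cells, 1 to 3 passed background on each array, while FSHR, AMH, INHA and PTX3 did so on none of the 12. Their summed signal ran from 1344.8 to 4361.6 in adult and 1578.1 to 14431.1 in prepubertal 8-16-cell embryos, and from 2537.4 to 4077.6 in adult and 1514.7 to 2845.8 in prepubertal blastocysts. Within that list STAR, a steroidogenic gene, passed background on all 6 arrays of the earlier stage and on 2 of 6 blastocyst arrays, and HAS2, a hyaluronan synthase, on 2 and on all 6. The part of this list in the stage differences was not tested.

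GADD45A carried the clearest pattern of the 5 genes: it was high in 8-16-cell embryos and low in blastocysts, whichever donors the oocytes came from. In adult 8-16-cell embryos the 3 arrays read 14.61, 13.75 and 15.01, and in prepubertal 8-16-cell embryos 13.99, 14.39 and 15.07. Adult blastocysts read 11.57, 10.04 and 10.61, and prepubertal blastocysts 10.85, 10.34 and 9.17. The lowest of the 6 arrays of the earlier stage was thus above the highest of the 6 blastocyst arrays, and all 12 values were above the background of their array. The group means were 14.46 ± 0.64 (SD, n = 3) and 14.48 ± 0.54 before, and 10.74 ± 0.77 and 10.12 ± 0.86 after, for adult and prepubertal donors. In that order of means, neighbouring groups of the same stage overlapped and the step between the stages did not.

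GADD45A fell by 3.72 (SE 1.09, adjusted p = 0.0412 by limma) from the 8-16-cell stage to the blastocyst in the adult group, a 13.1-fold difference. In the prepubertal group it fell by 4.36 (SE 1.09, adjusted p = 0.00893), a 20.6-fold difference. It was the 1 member of 5 called in the adult comparison, where 2.13% of all probe sets were called, and 1 of 2 called in the prepubertal comparison, where 2.34% were. Ranges that do not overlap were found for 17.2% and 16.6% of all probe sets in these comparisons, and for 1 and 2 of the 5 members. Because the 5 genes were chosen with earlier results of these data known, these shares cannot say whether they were called unusually often. The median of all probe sets differed by 0.08 and -0.37 between the stages, and relative to that median GADD45A differed by -3.79 and -4.0.

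The mean of both donor groups, a comparison of 6 arrays with 6 added after the data were seen, was tested too, and in it GADD45A fell by 4.04 (95% interval -5.56 to -2.52, adjusted p = 4.75e-05 by limma). Of all probe sets, 6.40% were called in this comparison and 3.44% had ranges that did not overlap. The call in the adult group alone was lost when any 1 of the 6 adult arrays was left out, with differences of -4.13 to -3.37 and adjusted p of 0.0631 to 0.2, while the mean of both donor groups stayed called under every alternative run, at adjusted p of 1.31e-05 to 0.000515. In the prepubertal group the call was lost without blastocyst replicate 3 (-3.89, adjusted p = 0.079).

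**Figure D1:**
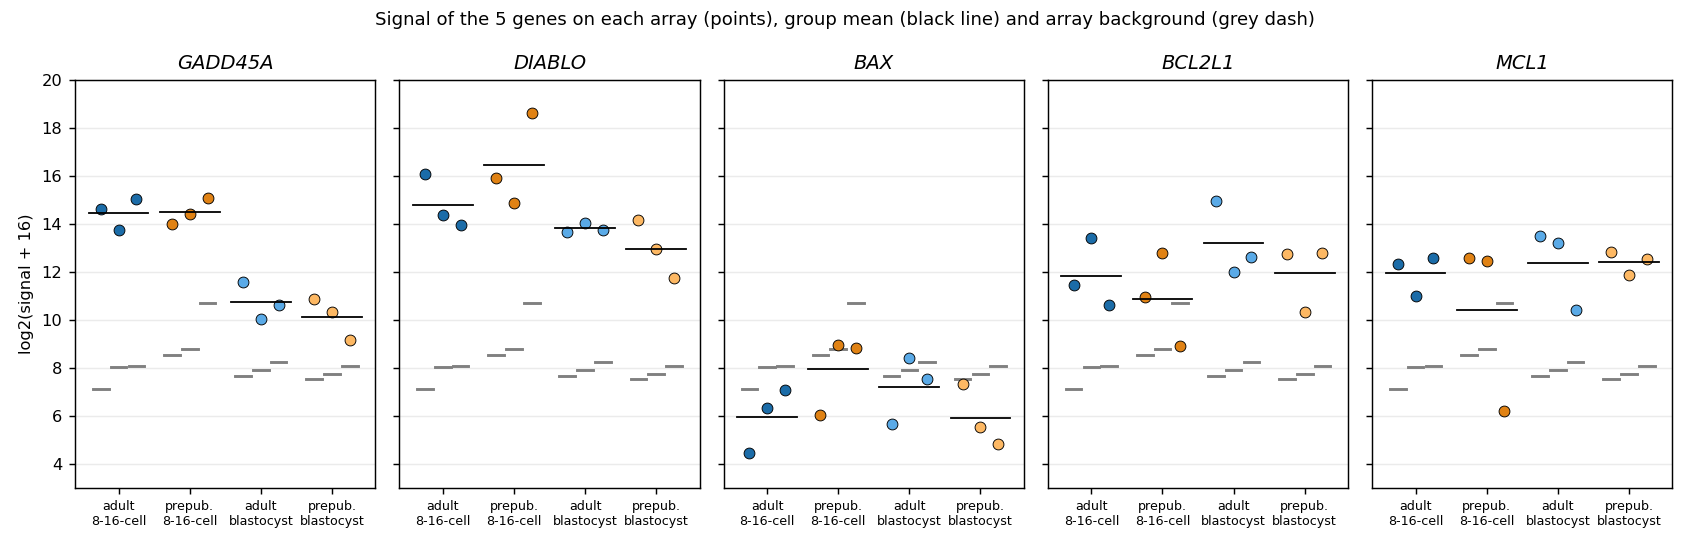
Signal of the 5 genes as log2(signal + 16) on each of the 12 arrays, with 1 point per array, a black line at the mean of each group of 3 and a grey dash at the background of each array. The GADD45A points of the 8-16-cell stage lie at 13.75 to 15.07 and those of blastocysts at 9.17 to 11.57, while 10 of the 12 BAX points lie at or below background.

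DIABLO was above background on all 12 arrays and lower in blastocysts of prepubertal donors than in their 8-16-cell embryos. Adult 8-16-cell embryos read 16.06, 14.37 and 13.96, and adult blastocysts 13.66, 14.04 and 13.72. Prepubertal 8-16-cell embryos read 15.90, 14.88 and 18.62, and prepubertal blastocysts 14.16, 12.96 and 11.74. The adult ranges overlapped and the prepubertal ranges did not. The reading of 18.62, the highest of all, came from prepubertal 8-16-cell replicate 3, the array that stood apart.

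In the prepubertal group DIABLO fell by 3.52 (SE 0.79, adjusted p = 0.00207 by limma), an 11.5-fold difference, or by 3.15 relative to the median of all probe sets. Without prepubertal 8-16-cell replicate 3 the difference was -2.44 (adjusted p = 0.0505), and without prepubertal blastocyst replicate 3, the lowest reading, it was -2.91 (adjusted p = 0.0626). With all signals raised to at least the highest background of the 12 arrays the difference stayed at -3.52, with an adjusted p of 0.0561. The adult group gave -0.99 (95% interval -2.54 to 0.56, adjusted p = 0.762), which did not pass. Whether the stages differed more in one donor group than in the other was tested directly, and the difference of -2.53 (95% interval -4.73 to -0.33, SE 1.11) did not pass (adjusted p = 0.889), and without prepubertal 8-16-cell replicate 3 it was -1.45 (adjusted p = 0.975). Over both donor groups DIABLO fell by 2.25 (SE 0.56, adjusted p = 0.0029), with ranges that overlapped between the stages (13.96 to 18.62 against 11.74 to 14.16), and without the array that stood apart by 1.72 (adjusted p = 0.014).

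BAX could hardly be measured. Its readings were 4.43, 6.31 and 7.09 in adult and 6.02, 8.96 and 8.81 in prepubertal 8-16-cell embryos, then 5.65, 8.41 and 7.53 in adult and 7.34, 5.53 and 4.82 in prepubertal blastocysts. It passed the background of its array on 2 of the 12 arrays, prepubertal 8-16-cell replicate 2 and adult blastocyst replicate 2, and on 3 with the second highest control in place of the highest. All 4 groups overlapped, and no fold is given for a gene at background in nearly every pool. limma's differences were 1.26 (95% interval -1.39 to 3.90) between the adult stages and -2.03 (95% interval -4.68 to 0.61) between the prepubertal ones, with adjusted p of 0.857 and 0.529.

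BCL2L1, the survival gene, was above background on 11 of the 12 arrays. It read 11.43, 13.41 and 10.61 in adult and 10.93, 12.79 and 8.92 in prepubertal 8-16-cell embryos, and 14.94, 12.00 and 12.62 in adult and 12.72, 10.33 and 12.78 in prepubertal blastocysts. The value of 8.92, the lowest of the 12 and the only one below background, was that of prepubertal 8-16-cell replicate 3. Group means ran from 13.19 ± 1.55 (SD, n = 3) in adult blastocysts through 11.94 ± 1.40 in prepubertal blastocysts and 11.82 ± 1.44 in adult 8-16-cell embryos to 10.88 ± 1.94 in prepubertal 8-16-cell embryos, and each neighbour in that order overlapped the next. Blastocysts minus 8-16-cell embryos gave 1.37 (95% interval -0.98 to 3.72) in the adult and 1.06 (95% interval -1.29 to 3.41) in the prepubertal group, and neither passed (adjusted p = 0.795 and 0.763 by limma). Without prepubertal 8-16-cell replicate 3 the prepubertal difference was 0.08.

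MCL1, the other survival gene, was above background on 11 of the 12 arrays. Prepubertal blastocysts read 12.81, 11.88 and 12.51, adult blastocysts 13.47, 13.19 and 10.40, and adult 8-16-cell embryos 12.33, 11 and 12.56. Prepubertal 8-16-cell embryos read 12.57, 12.43 and 6.18. The single reading below background was again on prepubertal 8-16-cell replicate 3, and all 4 groups overlapped. The stage difference of 2.00 in the prepubertal group (95% interval -0.44 to 4.44, adjusted p = 0.495) became -0.11 without that array, and that of the adult group was 0.39 (95% interval -2.05 to 2.83, adjusted p = 0.975).

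**Figure D2:**
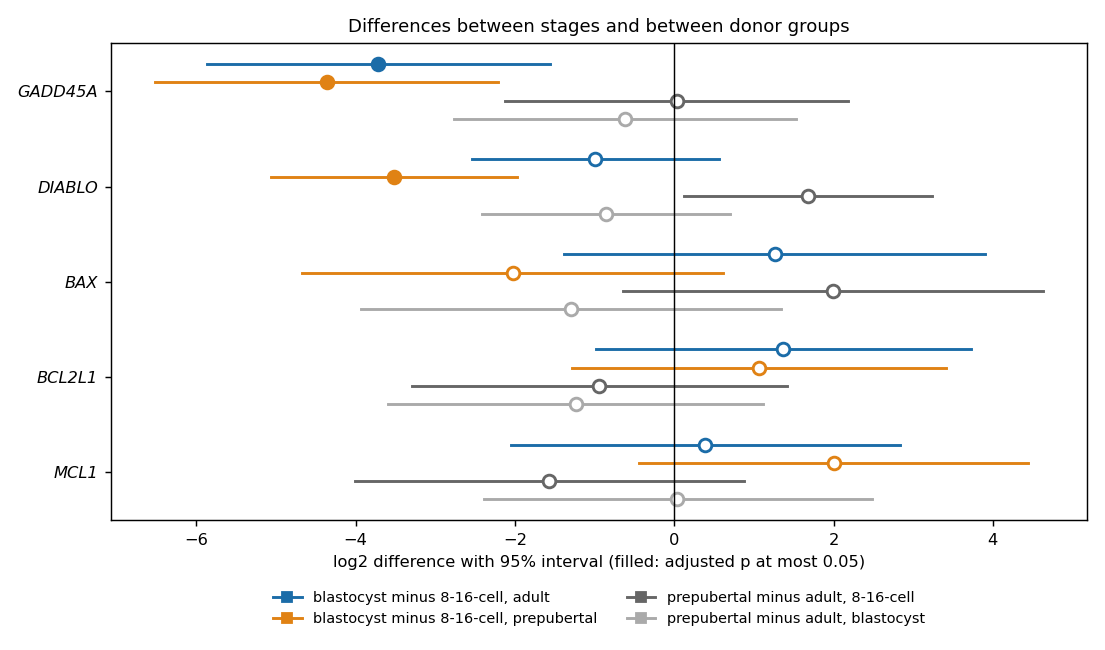
Differences of the 5 genes on the log2(signal + 16) scale with 95% intervals, between stages within each donor group (blue and orange) and between donor groups within each stage (dark and light grey). Filled points have an adjusted p of at most 0.05 by limma: GADD45A at -3.72 and -4.36 and DIABLO at -3.52, all between stages.

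Prepubertal and adult donors were compared at each stage, the question in the title of the study. None of the 5 genes was called at either stage: 0 of 5 in 8-16-cell embryos, where limma called 0.0208% of all probe sets, and 0 of 5 in blastocysts, where it called 0%. Ranges overlapped for all 5 genes in both comparisons, against 12.7% and 9.82% of all probe sets with ranges that did not. Without adjustment, p was under 0.05 for 9.02% of all probe sets at the 8-16-cell stage and for 3.68% in blastocysts.

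The intervals were wide. At the 8-16-cell stage GADD45A differed by 0.03 between prepubertal and adult donors (95% interval -2.13 to 2.18), and in blastocysts by -0.62 (95% interval -2.77 to 1.53). DIABLO gave 1.68 (95% interval 0.12 to 3.23, which does not take in 0, adjusted p = 0.519 by limma) and -0.86 (95% interval -2.41 to 0.70). BCL2L1 gave -0.94 (95% interval -3.29 to 1.41) and -1.24 (95% interval -3.59 to 1.11), and MCL1 -1.57 (95% interval -4.01 to 0.87) and 0.04 (95% interval -2.39 to 2.48). BAX gave 1.99 and -1.30 with most readings at background. Without prepubertal 8-16-cell replicate 3 the 8-16-cell difference of DIABLO was 0.60 (adjusted p = 0.939), that of GADD45A -0.26, that of MCL1 0.54 and that of BCL2L1 0.04. The median of all probe sets differed by 0.59 between donors at the 8-16-cell stage and by 0.05 after quantile normalization, and under that normalization the GADD45A difference of 0.03 became -0.26. Averaged over both stages, a comparison of 6 arrays with 6 added after the data were seen, 0 of 5 members and 0% of all probe sets were called between donors (6.87% at an unadjusted p under 0.05), and the ranges of all 5 overlapped, against 0.291% of probe sets whose ranges did not. These differences ran from -1.09 for BCL2L1 (95% interval -2.75 to 0.57) to 0.41 for DIABLO (95% interval -0.69 to 1.51), and without prepubertal 8-16-cell replicate 3 these were -0.60 and -0.13. The change of the donor difference from one stage to the next was called for 0 of 5 members and 0% of all probe sets (5.44% at an unadjusted p under 0.05), and for GADD45A it was -0.65 (95% interval -3.69 to 2.40), and -0.36 without that array.

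The balance between the effector BAX and the survival genes was also followed within each array, as the difference of their log2(signal + 16) values. Because BAX signals were low, these values depend on the pseudocount, and the adult stage difference of BAX minus BCL2L1 turned from -0.11 to 0.38 with a pseudocount of 1. BAX minus BCL2L1 differed between the stages by -0.11 in the adult group (exact permutation test, two-sided, p = 0.9) and by -3.10 in the prepubertal group (p = 0.2 in the same exact test). BAX minus MCL1 differed by 0.87 (exact p = 0.6) and -4.04 (exact p = 0.3). Between donors, BAX minus BCL2L1 differed by 2.93 at the 8-16-cell stage (exact p = 0.3) and by -0.06 in blastocysts (exact p = 1.0), and BAX minus MCL1 by 3.56 (exact p = 0.3) and -1.35 (exact p = 0.5). Without prepubertal 8-16-cell replicate 3 the prepubertal stage differences were -1.68 for BAX minus BCL2L1 and -1.49 for BAX minus MCL1, and the donor differences at the 8-16-cell stage 1.51 and 1.01. With 3 arrays against 3 the smallest p this test can give is 0.1, and BAX was at background on 10 of the 12 arrays.

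Across the 12 arrays the signals of GADD45A and DIABLO went together, with a Pearson r of 0.75, and 0.76 over the 11 arrays without prepubertal 8-16-cell replicate 3. DIABLO and MCL1 had r of -0.66 over 12 arrays and 0.04 over 11, and BCL2L1 and MCL1 0.57 and 0.09, so both relations rested on that array. The points share the 2 stages and the scaling of each array, and the values are a description.

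The named genes whose signal was most like that of each member were sought among those above background on all 3 arrays of at least 1 group (3271 genes, and 3272 for BAX). For GADD45A they were PNRC1 (Pearson r 0.978 over 12 arrays), CST3 (0.971), which encodes the protease inhibitor cystatin C, and the deubiquitinase gene USP33 (0.964), and without prepubertal 8-16-cell replicate 3 the same pairs had r of 0.976, 0.971 and 0.967. For DIABLO they were STT3B (0.907), SBDS (0.905) and RNF19A (0.892), with 0.834, 0.899 and 0.834 over 11 arrays. BCL2L1 was most like SCCPDH (0.893), SCARB2 (0.840) and GLRX2 (0.830). MCL1 was most like CTBP2 (0.949), CD164 (0.946) and HNRNPU (0.933), and these fell to 0.700, 0.681 and 0.796 without the array that stood apart. For BAX, mostly background, the highest were MTHFD1 (0.778), NOB1 (0.767) and STMP1 (0.748). Over the 12 arrays the 3 correlations of GADD45A were the highest of the 5 genes. These values too share the stages and the scaling of each array. They were picked as the highest of 3271 or 3272 genes and are a description.

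The rest of the pathway was read from a list of 104 genes in 9 roles, of which 68 were named on the array. In 36 of these the signal was above background on all 3 arrays of at least 1 group, in 6 on all 12 arrays (GADD45A, DIABLO, RAD17, PCNA, CCNG1 and APEX1), and in 7 on none. The 36 are 52.9% of the 68 genes, beside 35.7% of all 9155 named genes. Of all named genes, 405 were above background on all 12 arrays and 1397 on none. From the 8-16-cell stage to the blastocyst, limma called 2 genes higher and 1 lower in the adult group, leaving 65 not called, and 1 higher and 3 lower in the prepubertal group, leaving 64. These are 4.41% and 5.88% of the 68 genes, beside 3.17% and 3.95% of all 9155 named genes. Without the 5 members, 3.17% of the remaining 63 genes were called in each of these comparisons. Ranges did not overlap between the stages for 23.5% and 17.6% of the 68 genes, beside 21.0% and 19.7% of all named genes. The median difference of the 68 genes was 0.39 in the adult and 0.02 in the prepubertal group, beside 0.13 and -0.16 for all 9155 named genes. Between donors 0 of the 68 were called at either stage, with medians of 0.32 and -0.08 beside 0.46 and 0.18 for all named genes.

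Besides GADD45A and DIABLO, the called genes were PERP, MSH6 and RAD17. PERP, a p53 target that encodes a membrane protein of epithelial junctions, read 7.32, 9.06 and 8.57 in adult and 4.63, 9.15 and 5.24 in prepubertal 8-16-cell embryos, and 12.24, 13.47 and 13.49 in adult and 13.18, 13.90 and 11.69 in prepubertal blastocysts. All 6 blastocyst arrays were above all 6 arrays of the earlier stage, so that the p53 targets GADD45A and PERP differed in opposite directions. Of the 11 named genes of p53 and its targets, the other 9 were not called in either stage comparison. The median differences of the 11 were -0.2 in the adult and 0.26 in the prepubertal group. PERP rose by 4.75 (SE 1.41, adjusted p = 0.045 by limma) in the adult group and by 6.59 (SE 1.41, adjusted p = 0.0011) in the prepubertal group. The adult call was lost in 11 of 20 alternatives, at adjusted p of up to 0.186, among them a pseudocount of 1 (4.82, 0.061) and quantile normalization (4.41, 0.0868). With signals floored at the highest background the prepubertal difference was 2.21 (adjusted p = 0.0523).

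MSH6, a subunit of the mismatch recognition complex, rose by 4.23 (SE 1.16, adjusted p = 0.0251 by limma) in the adult group. Its blastocyst arrays read 13.26 to 14.06 in both donor groups, its adult 8-16-cell arrays 8.36, 11.62 and 7.74, and its prepubertal ones 10.94, 12.29 and 12.17, so the ranges of the stages did not overlap in either group. In the prepubertal group the difference was 1.86 and did not pass (adjusted p = 0.501). The adult call was lost on leaving out adult 8-16-cell replicate 1 or 3 or any adult blastocyst array, at adjusted p of up to 0.166.

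RAD17, which loads the checkpoint clamp onto damaged DNA, fell by 4.42 (SE 1.17, adjusted p = 0.0164 by limma) in the prepubertal group. It read 15.03, 15.53 and 12.00 in the 8-16-cell embryos and 10.63, 9.19 and 9.47 in the blastocysts, with no overlap. The adult arrays read 13.11, 13.04 and 15.31 before and 14.65, 10.07 and 8.42 after, which overlapped, and the difference of -2.77 did not pass (adjusted p = 0.274). In the prepubertal group the call was lost with the floor (-3.47, adjusted p = 0.141) and without 8-16-cell replicate 1 or 2 or blastocyst replicate 2 or 3, at differences of -4.28 to -3.75 and adjusted p of 0.0721 to 0.127.

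**Figure D3:**
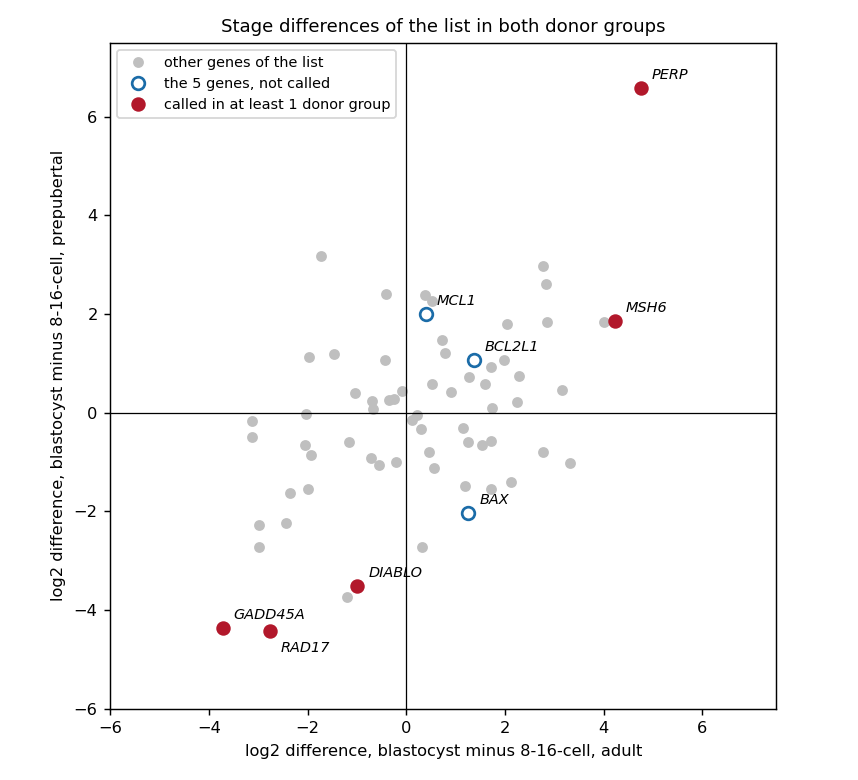
Difference between blastocysts and 8-16-cell embryos on the log2(signal + 16) scale for the 68 listed genes, adult donors on the horizontal and prepubertal donors on the vertical axis, each point a gene. Red points were called in at least 1 donor group: GADD45A, DIABLO and RAD17 lie below 0 on both axes and PERP and MSH6 above 0 on both.

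Relatives of the members by role were mostly not called, in stage comparisons that called 3.17% and 3.95% of all named genes. Among the effectors, BAK1 and BOK were measured beside BAX. BAK1, which opens the mitochondrial membrane as BAX does, passed background on 1 of 6 arrays of 8-16-cell embryos and on 2 of 6 blastocyst arrays, both of prepubertal donors. Its donor difference in blastocysts of 3.95 (SE 1.35) did not pass (adjusted p = 1.0 by limma). With the settings other than leaving out an array, that difference ran from 0.02 to 5.12. BOK, chosen for mention after its values were seen, was above background on all 6 blastocyst arrays (8.51 to 10.24) and on 0 of 6 arrays of 8-16-cell embryos (4.71 to 10.01). The reading of 10.01 was on prepubertal 8-16-cell replicate 3, under a background of 10.71, so BOK overlapped between the prepubertal stages. Stage differences of BOK of 4.01 and 1.84 did not pass (adjusted p = 0.152 and 0.634, the latter difference 2.98 without prepubertal 8-16-cell replicate 3), and a second BOK probe set gave 1.01 and -0.01.

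Of the 6 survival genes of the list, 5 were named on the array. BCL2L2 and BCL2A1 were at background on all 12 arrays, and BCL2, the founding member, was above it on 10 by its brightest probe set and on 0 to 4 by the other 4. None of the 5 genes was called in any comparison. Of the 10 BH3-only genes, which trigger apoptosis by binding the survival proteins, 3 were named and none called. Such counts say little in lists this small. Of all named genes, 3.17% and 3.95% were called between the stages and 0.0218% and 0% between donors.

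The inhibitor of apoptosis proteins are the partners of DIABLO. XIAP, which blocks caspases directly and is bound by DIABLO, passed background on 3 of 6 arrays of 8-16-cell embryos and on 4 of 6 blastocyst arrays. The change of its donor difference between the stages was 4.90 (SE 2.17, adjusted p = 0.893), beside -2.53 for DIABLO, and neither passed. Stage differences of XIAP were -1.73 and 3.17 in adult and prepubertal donors (adjusted p = 0.802 and 0.325), and a second XIAP probe set gave -1.95 and 0.27. BIRC3 differed by -3.91 (SE 1.46, adjusted p = 0.418) between donors at the 8-16-cell stage, where its second probe set gave 0.72, and by -2.17 without prepubertal 8-16-cell replicate 3. BIRC5, also called survivin and needed in cell division, was above background on 11 of 12 arrays with stage differences of 0.56 and -1.12 (-2.46 without that array), which did not pass.

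Within the GADD45 family, GADD45B was measured beside GADD45A. It read 12.86, 8.75 and 11.83 in adult and 12.33, 13.52 and 8.89 in prepubertal 8-16-cell embryos, and 8.13, 8.27 and 7.67 in adult and 11.38, 10.17 and 11.69 in prepubertal blastocysts. The adult stages did not overlap and the prepubertal ones did, with differences of -3.12 (adjusted p = 0.323 by limma) and -0.50 (adjusted p = 0.919), and without prepubertal 8-16-cell replicate 3, where its reading was below background, the prepubertal difference was -1.85 (adjusted p = 0.637). In blastocysts GADD45B was higher in every prepubertal pool than in every adult pool, by 3.06 (SE 1.39, adjusted p = 1.0), and did not pass. Ranges did not overlap for 9.82% of all probe sets in this comparison. The adult blastocyst readings lay near their backgrounds of 7.67, 7.91 and 8.22. With the settings other than leaving out an array, the difference ran from 0.55 to 3.13. GADD45GIP1, a partner that binds GADD45 proteins, named after its values were seen, was above background on 0 of 6 arrays before and 5 of 6 after. It read 9.02 on prepubertal 8-16-cell replicate 3, under a background of 10.71. That was higher than readings of 8.71, 8.37 and 7.74 on blastocyst arrays that passed. Its differences of 3.15 and 0.47 (1.55 without prepubertal 8-16-cell replicate 3) did not pass.

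**Figure D4:**
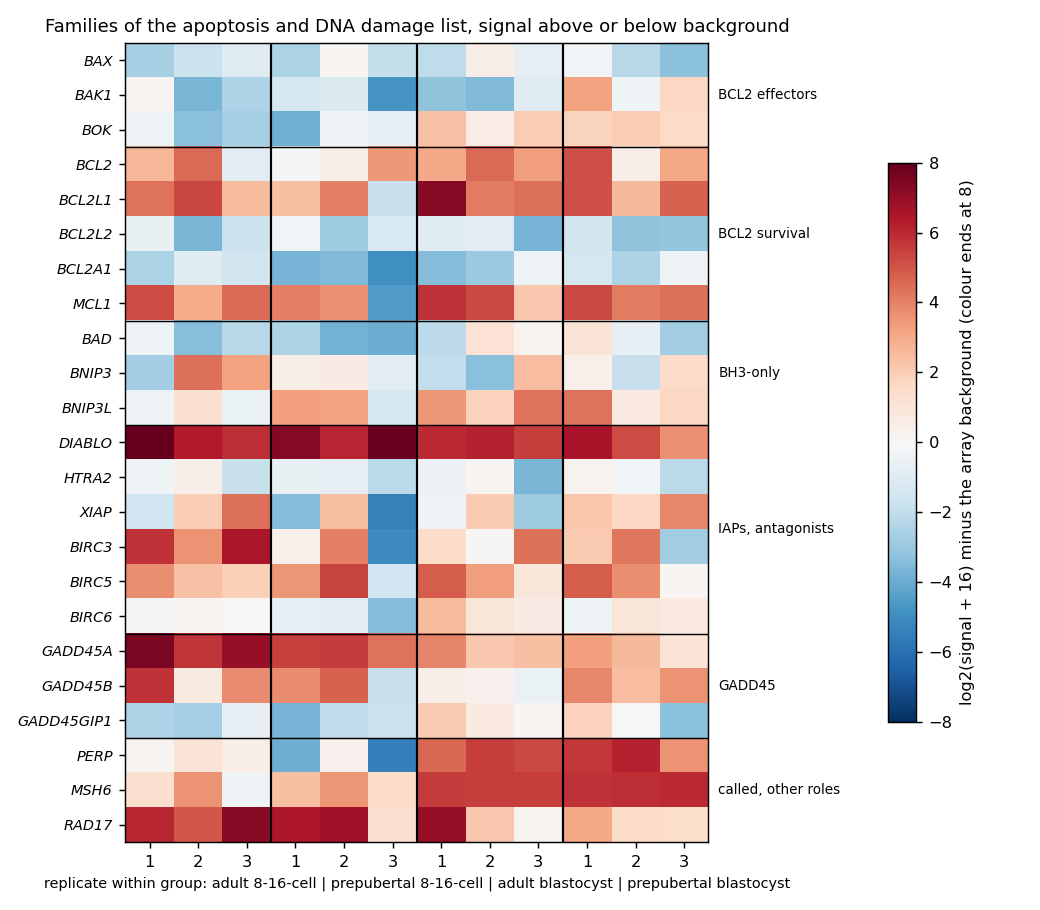
Signal of the 5 genes, their family members and the other called genes on each of the 12 arrays, as log2(signal + 16) minus the log2 background of the array, from blue (below) through white to red (above). GADD45A and DIABLO are above background on every array, BAX on 2, and BOK on the 6 blastocyst arrays alone. BOK read 10.01 on prepubertal 8-16-cell replicate 3, under a background of 10.71.

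Most genes of the caspase and death receptor lists were above background in no whole group, as were most of all named genes. Of the 15 genes of the apoptosome, the caspases and DNA breakdown, 8 were named and 2 of them were above background in a whole group, beside 35.7% of all named genes. CASP6, an executioner caspase, was above background on 11 of the 12 arrays and DFFA, an inhibitor of the nuclease that cuts DNA in dying cells, on 8, while CASP4 was at background on all 12. Of the 9 death receptor genes, 8 were named. Of these 8, 1 (12.5%, beside the same 35.7%) was above background in a whole group, the kinase gene RIPK1, which passed on 9 arrays. FAS, FASLG and TRADD were at background throughout. TNF differed by 3.06 between donors at the 8-16-cell stage, with all 6 arrays at background, and so has no fold. None of these 16 genes was called in any comparison, a count that says little where 3.17% and 3.95% of all named genes were called between the stages, and 18 of the 20 named genes of damage sensing and repair were not called in either stage comparison.

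**Figure D5:**
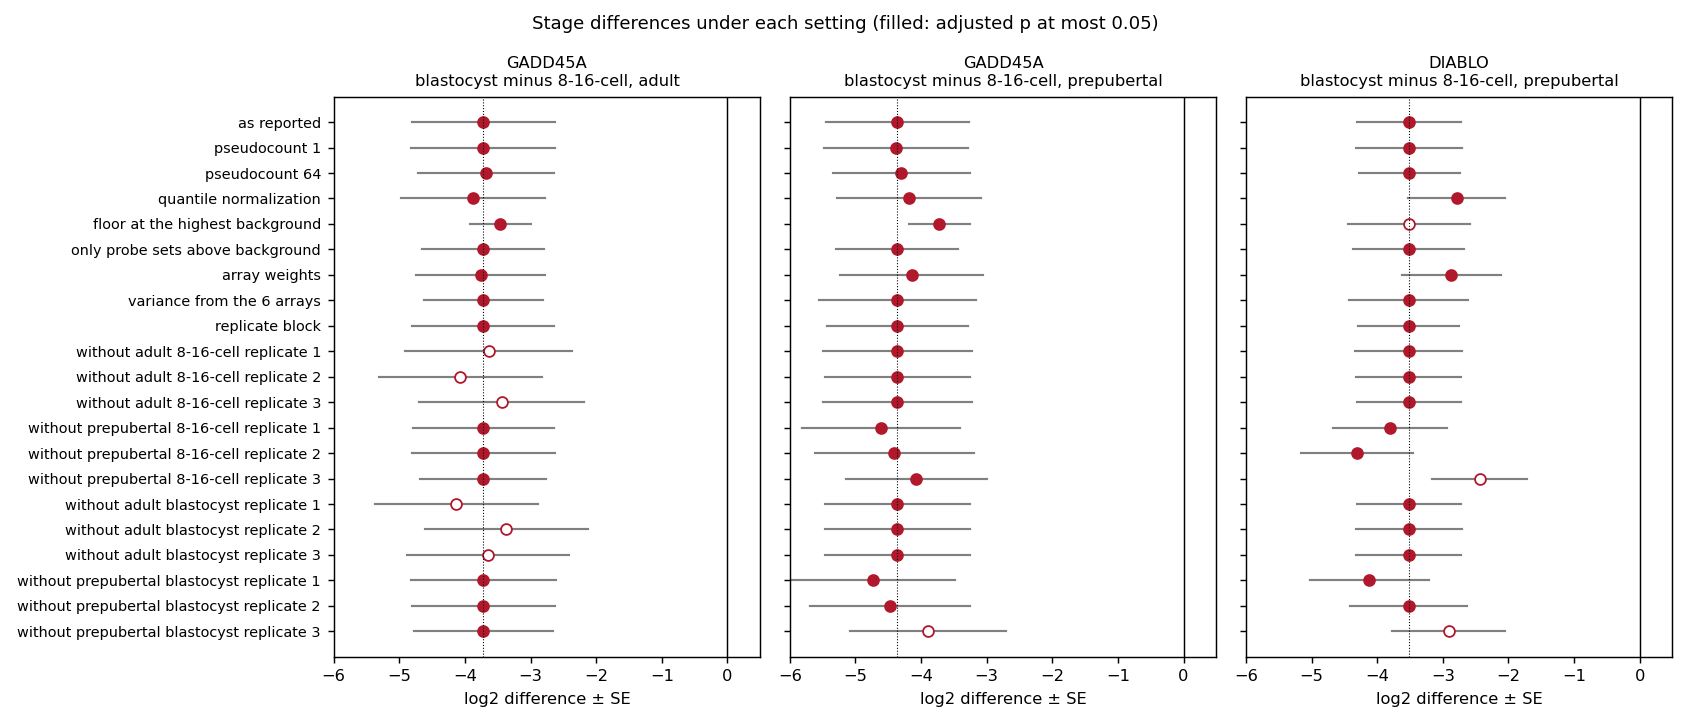
Stage differences of GADD45A and DIABLO on the log2 scale with 1 SE under each setting, filled where the adjusted p is at most 0.05 by limma. In all settings shown the points lie below 0: GADD45A in adult donors at -4.13 to -3.37, GADD45A in prepubertal donors at -4.73 to -3.72 and DIABLO in prepubertal donors at -4.31 to -2.44.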

How the data were processed

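RNA of 12 embryo pools (4 groups of 3) was amplified with WT-Ovation Pico and read on an Affymetrix bovine array, per the labels. The authors deposited 1 signal intensity per probe set, made with MAS5 per the submitters' processing notes; no source used here gives its version or settings. Trimmed means (2% at each end) of 500.19 to 500.31 showed a common scaling. Of 24128 probe sets, 112 were controls. The platform annotation named 1 gene for 13292 of the rest, several for 86 and none for 10638; 13263 symbols were matched by gene identifier. No genome build is named for these values, so no coordinates are given.

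Group means of log2(signal + 16) were fitted to all 12 arrays with limma 3.58.1 (R 4.3.3, eBayes with trend = TRUE, 8 residual degrees of freedom), tested on simulated data beforehand. The prior of the moderated variance had 195.66 degrees of freedom, so each SE rests mostly on the trend over all probe sets. Array number limits the precision: the median SE of a difference was 1.3. Alternatives were pseudocounts of 1 and 64, quantile normalization, a floor, a filter, array weights, the variance of the compared arrays alone, a replicate block and each array left out. The 5 genes and all gene lists were chosen with earlier results of these data known. Named beside them were all listed genes called, or, where none was, the 2 of smallest p, and the 3 most correlated genes. Blood genes (3 of 4 measured) passed background for 0 to 2 genes per array and sperm genes (4 of 4) for 0 to 2.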

Additional observations from a re-analysis of the deposited data

How the results depend on the processing

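The number of members called in the adult stage comparison was 0 to 1 with each array left out, and that of listed genes 0 to 3, against 1 and 3 as reported. In the prepubertal stage comparison, members called ranged from 0 to 2 and listed genes from 1 to 4 with each array left out, and both counts were 1 with the floor at the highest background. Over both donor groups, members called were 1 with the floor, and listed genes called were 9 with only probe sets above background and 5 to 8 with each array left out. In the donor comparisons and the change of the donor difference no member was called under any alternative run.

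Some differences that had not passed changed sign. BAX minus BCL2L1 between the adult stages was 0.38 with a pseudocount of 1 and -1.31 to 1.54 with each array left out; between donors in blastocysts it was 0.38 with a pseudocount of 64 and -1.71 to 1.14. BAX minus MCL1 between the adult stages was -0.27 to 2.20 with each array left out. MCL1 between the adult stages ranged from -0.17 to 1.36 with each array left out, and between the prepubertal stages from -0.11 to 3.09. Between donors at the 8-16-cell stage GADD45A was -0.26 after quantile normalization, -0.08 with array weights and -0.32 to 0.30 with each array left out, BCL2L1 -1.89 to 0.04 and MCL1 -2.65 to 0.54. MCL1 between donors in blastocysts was -0.06 with the floor, -0.01 with array weights and -0.93 to 0.60 with each array left out. The change of the donor difference was 0.23 for BCL2L1 after quantile normalization and -1.28 to 0.65 with each array left out, and for MCL1 0.00 with the floor and -0.49 to 2.70. Over both stages the donor difference ranged from -0.13 to 0.81 for DIABLO, -0.04 to 0.82 for BAX and -1.3 to 0.29 for MCL1 with each array left out, the lowest of DIABLO and the highest of MCL1 being those without prepubertal 8-16-cell replicate 3. The cause of these changes was not tested.

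Replicate numbers were shared by the groups. Of 18 pairs of arrays with the same number, 0 had deviations correlated above 0.1 (-0.03 to 0.07 over 5304 probe sets). Of the same pairs, 9 correlated best with their own number. These correlations cannot tell whether arrays of the same number shared a run or a day, and the labels do not say. With the replicate number as a block, members called were 1, 2, 0, 0 and 0 in the 5 planned comparisons and no call of a member changed. Every member had 1 probe set, so no other probe set could be tried, and BAX had no value with the floor or with only probe sets above background. Signal over background limits BAX throughout, and the 3 arrays of a group limit the rest. If the Bacillus subtilis sequences were added to the samples, the background is too high.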
